A study of Mus musculus with 6 samples.

Results

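Guanylate-binding proteins (GBP) and immunity-related GTPases (IRG) were followed in sorted mouse microglia with and without overexpression of the coactivator PGC-1α. A list of 10 mouse genes was examined, 6 of the GBP family (Gbp2, Gbp3, Gbp5, Gbp6, Gbp7 and Gbp9) and 4 of the IRG family (Irgm1, Irgm2, Igtp and Iigp1). They were found through the transcript accessions of the array's probes, which gave 12 probes for the 10 genes, of 33767 probes with 1 gene symbol for 23462 genes. Irgm1 had 3 probes and the other genes 1 each. All 6 samples were microglia of 10-week-old C57BL/6-background mice whose labels say male, isolated with magnetic beads against the surface receptor P2RY12, and no injury or stimulus is given in their labels. The control group (PGC-1αf/f, n = 3) carried an allele of PGC-1α with eGFP under the control of loxP sites and had no Cre. The mPGC-1α group (n = 3) carried the same allele and, in the Cx3cr1 locus, a Cre recombinase that tamoxifen activates in Cx3cr1-expressing cells. The transgene, the Cre and the changed Cx3cr1 locus differed together between the groups, so their effects cannot be told apart. The methods describe a course of tamoxifen and an interval after it, without saying whether the controls of the arrays were given the drug.

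GBP and IRG proteins are GTPases that cells make mainly in response to interferon-γ and, to a lesser degree, to type I interferons. Interferon-γ acts through its receptor and the kinases Jak1 and Jak2, and the transcription factor Irf1, which it induces, binds the promoters of these genes. GBPs assemble on the membranes of pathogen vacuoles and bacteria and take part in inflammasome activation, with caspase-11 (Casp4) as one partner. Among the IRG proteins, Irgm1, Irgm2 and Igtp (Irgm3) are regulators that sit on the cell's own membranes, whereas Iigp1 (Irga6) and Tgtp2 (an Irgb6 protein) are effectors loaded onto the vacuole with help from autophagy proteins. In the brain, microglia are among the cells in which interferons induce both families.

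The promoters are shown first, since the group is named for its response to interferon. RefSeq promoter windows (GRCm38.p6, 250 bases before to 50 after the transcript start) were at hand for 7 of the 10 genes, Gbp2, Gbp3, Gbp5, Gbp7, Irgm1, Irgm2 and Igtp. Each was searched for the core of the interferon-stimulated response element (ISRE, GAAA, then NN, then GAAA or, on the other strand, TTTC, then NN, then TTTC, where N is any base) and for the gamma-activated sequence (GAS, letters TTCNNNGAA, which reads the same on both strands). The following stretches run 5′ to 3′ along the transcript from 120 bases before the start to the base before it. Capitals mark ISRE and GAS letters, and where matches overlap or touch the capitals run together.
Gbp2 (chr3:142620543-142620662, plus strand): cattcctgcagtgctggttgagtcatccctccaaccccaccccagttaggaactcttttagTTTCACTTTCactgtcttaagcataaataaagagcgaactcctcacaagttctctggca
Gbp7 (chr3:142530216-142530335, plus strand): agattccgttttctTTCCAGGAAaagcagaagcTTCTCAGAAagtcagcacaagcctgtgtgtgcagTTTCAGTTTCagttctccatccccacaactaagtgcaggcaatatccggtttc
Irgm1 (chr11:48871421-48871540, minus strand): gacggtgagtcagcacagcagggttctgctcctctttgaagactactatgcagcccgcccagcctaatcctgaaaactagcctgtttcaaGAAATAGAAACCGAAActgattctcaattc
Irgm2 (chr11:58214857-58214976, plus strand): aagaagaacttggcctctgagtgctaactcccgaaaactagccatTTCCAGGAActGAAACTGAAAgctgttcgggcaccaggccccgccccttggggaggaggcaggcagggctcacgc
Igtp (chr11:58199436-58199555, plus strand): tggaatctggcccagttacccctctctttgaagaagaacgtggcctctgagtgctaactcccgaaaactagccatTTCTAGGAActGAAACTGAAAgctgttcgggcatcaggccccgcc
Isg15 (chr4:156200819-156200938, minus strand): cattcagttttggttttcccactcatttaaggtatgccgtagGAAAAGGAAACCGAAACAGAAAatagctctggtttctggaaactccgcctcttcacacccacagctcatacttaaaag
The first 5 are, among members with a window, those with the largest differences in signal in either direction. Isg15 is a type I interferon response gene shown for comparison. All 7 members with a window held an ISRE match, against 3.99% of 27025 genes with a promoter window. A GAS match was found in 4 of the 7, against 9.55% of all genes. The Igtp and Irgm2 windows are close copies, identical at 247 of 335 aligned positions (73.7%), whereas every other pair of the 6 windows was 48.9% to 53.6% identical. These matches describe the letters and are not evidence of binding.

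To determine whether the family differed between the groups, the signal of each gene was read on every array. Values below are log2 signal minus the 75th percentile of that array, so they compare arrays for 1 probe and not one gene with another. A probe counted as well above background by the scanner software's flag, and it was tested where it was so on all arrays of at least 1 group. Between 27025 and 30272 of 59305 spots were well above background per array and none was saturated. PGC-1αf/f replicate 3 stood apart, with a mean correlation of 0.928 to the other arrays against 0.962 to 0.972 for the rest. On mPGC-1α replicate 3, 0 of 5 Y-linked probes were well above background, although the label says male, against 5 of 5 on each of the other arrays. Xist, a transcript of female cells, was well above background there (-1.63) and also on PGC-1αf/f replicate 2 (-2.78) and mPGC-1α replicate 2 (-2.40), which had Y-linked signal, so signal on 3 arrays goes against the label. The brighter Ppargc1a probe, which measures PGC-1α, gave 0.19, -0.44 and -1.21 in PGC-1αf/f and 0.57, 0.28 and 0.08 in mPGC-1α microglia, groups that overlapped (difference 0.80, limma adjusted p = 0.306). All 14 microglial markers were well above background on all 6 arrays.

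Of the 10 members, 8 were tested and 0 passed an adjusted p of 0.05 in limma, where 0.0792% of all 25257 probes passed and 0.0713% passed with higher signal in mPGC-1α microglia. At an unadjusted p under 0.05, 1 member (Gbp2) was higher in mPGC-1α microglia and 0 were lower, against 7.53% and 9.21% of all probes. The count of higher members was 0 with the replicate block and with a random block for the slide column, where 9.49% and 9.14% of all probes were higher. Signals ranged in difference from 0.87 (Gbp2) to -0.24 (Irgm2) on the log2 scale, with a median of 0.17 against 0.02 over 13099 tested genes. That median was 0.07 without PGC-1αf/f replicate 3, 0.03 with a median shift and -0.09 with array weights. Of the 7 members with a value on every array, Irgm1 had all mPGC-1α arrays above all PGC-1αf/f arrays, and Irgm2 and Igtp had all of them below. Those patterns were met by 11.4% and 13.7% of all probes. A difference above 0 was found for 5 of the 8, against 49.7% of all probes, and one of at least 2-fold higher for 0, against 3.71%. Leaving out PGC-1αf/f replicate 3 gave 0 members higher at an unadjusted p under 0.05 and 1 with all mPGC-1α arrays above the controls, against 6.08% and 14.8% of all probes.

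**Figure D1:**
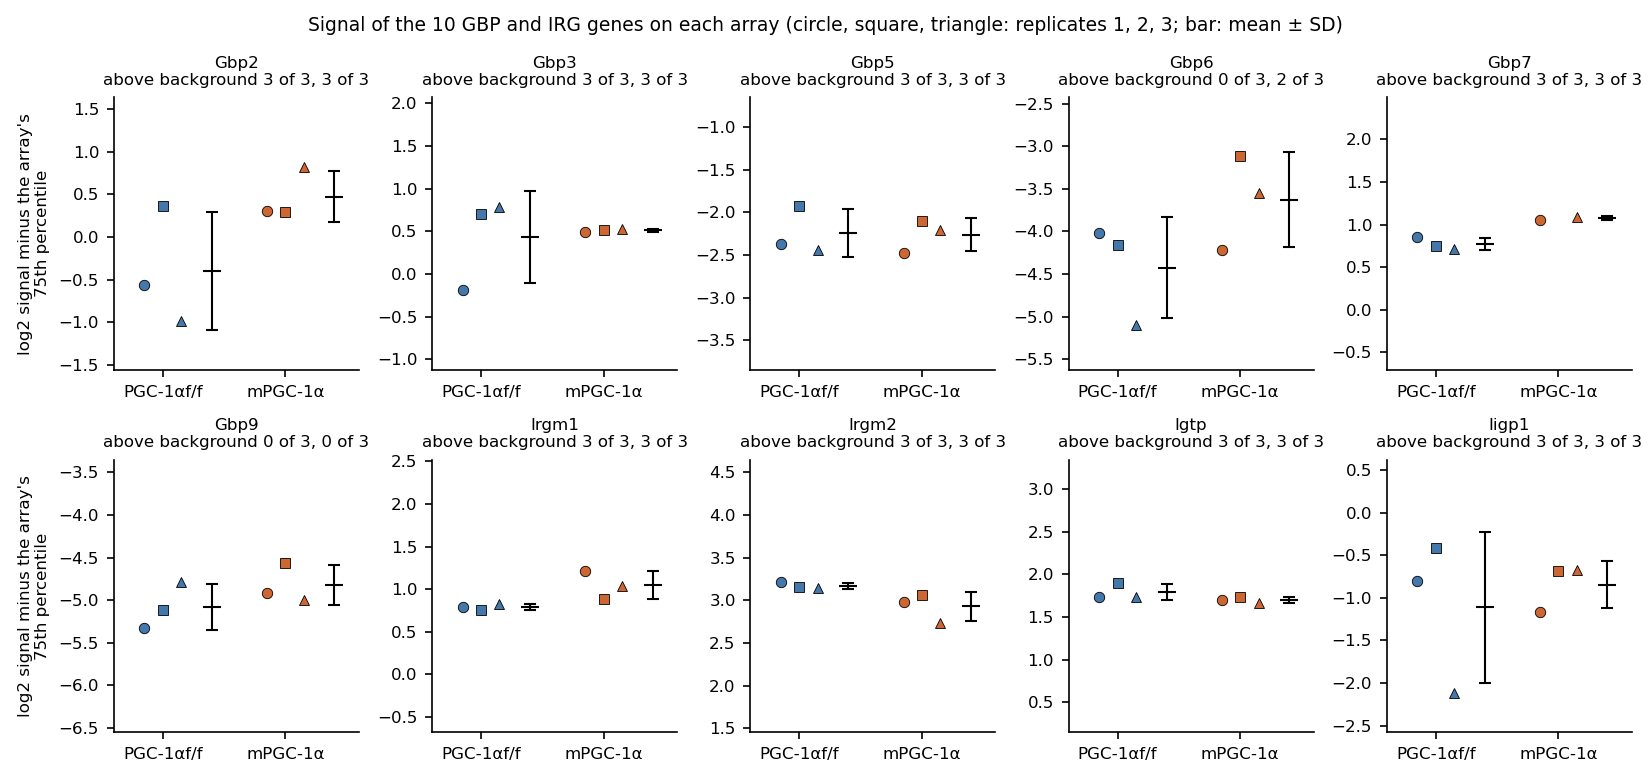
Log2 signal minus the 75th percentile of the array (vertical axis, its own range in each panel) for each of the 10 genes in PGC-1αf/f (blue) and mPGC-1α (orange) microglia, 1 point per array, with bars for mean ± SD and the number of arrays well above background over each panel. The groups overlap for Gbp2, Gbp3, Gbp5 and Iigp1, stand apart by small steps for Irgm1, Irgm2 and Igtp, and Gbp9 has 0 of 6 arrays well above background.

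Gbp2 encodes a GBP that is recruited to pathogen vacuoles and bacteria. Its signal was -0.57, 0.37 and -0.99 in PGC-1αf/f and 0.30, 0.30 and 0.82 in mPGC-1α microglia. The highest value lay in mPGC-1α replicate 3, but PGC-1αf/f replicate 2 was above the other mPGC-1α arrays, so the groups overlapped. The means were -0.40 ± 0.69 and 0.47 ± 0.30 (SD, n = 3 each), a difference of 0.87 (SE 0.35, 95% interval 0.04 to 1.70) or 1.83-fold, with a limma unadjusted p of 0.0425 and an adjusted p of 0.286. In the order of differences Gbp2 ranked 743 of 13099 genes. Within slide column 1, which held replicate 1 of each group, the difference was 0.87, and within column 2, which held replicate 2 of each, it was -0.07. The difference fell to 0.57 once PGC-1αf/f replicate 3 was left out (adjusted p = 0.493) and to 0.30 with array weights (adjusted p = 0.570). It was 0.70 without mPGC-1α replicate 3 (adjusted p = 0.474) and 0.40 without both arrays (adjusted p = 0.640), the latter a choice made after seeing the data.

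Gbp7, a GBP linked to the antimicrobial oxidase of phagocytes, gave 0.85, 0.75 and 0.71 in PGC-1αf/f microglia. In mPGC-1α microglia it gave 1.06 and 1.09, and the spot of replicate 2 was an outlier by the scanner's flag and left out. The difference was 0.31 (SE 0.14, n = 3 and 2, limma adjusted p = 0.345). With outlier spots kept, a choice made after seeing the data, replicate 2 read 1.01 and the groups stood apart, with a difference of 0.28 (adjusted p = 0.298). Its spread between arrays was narrow, with an SD of 0.07 in PGC-1αf/f microglia.

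Among the remaining GBPs, Gbp3 was -0.19, 0.70 and 0.78 in PGC-1αf/f and 0.49, 0.51 and 0.53 in mPGC-1α microglia. The mPGC-1α arrays lay within the range of the controls, and the difference was 0.08 (SE 0.26, 95% interval -0.54 to 0.70, adjusted p = 0.90 in limma). Gbp5, which has been linked to assembly of the NLRP3 inflammasome, gave -2.37, -1.92 and -2.44 against -2.48, -2.10 and -2.20. Those ranges overlapped almost completely, with a difference of -0.02 (SE 0.19, 95% interval -0.47 to 0.42, adjusted p = 0.964).

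Gbp6 and Gbp9 were too dim to be tested. Gbp6 was not well above background on any PGC-1αf/f array (-4.02, -4.16 and -5.10) and was so on 2 of 3 mPGC-1α arrays (-4.22, -3.12 and -3.55). Setting the mPGC-1α mean against the lowest signal well above background, or the probe's own signal where higher, gave 1.05-fold. That value has no error attached, and the groups overlapped, with mPGC-1α replicate 1 below PGC-1αf/f replicates 1 and 2. No direction is drawn from it. For Gbp9 no array was well above background, and its values ran from -5.33 to -4.56.

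Irgm1, a regulator also tied to autophagy, was 0.79, 0.76 and 0.83 in PGC-1αf/f and 1.22, 0.89 and 1.03 in mPGC-1α microglia on the probe that stands for the gene. All mPGC-1α arrays were above all controls by a small margin. The difference was 0.26 (SE 0.14, 95% interval -0.07 to 0.58), or 1.19-fold, and did not pass (limma adjusted p = 0.377). A second Irgm1 probe read -0.84, -0.74 and -0.71 against -0.43, -0.65 and -0.80, with groups that overlapped and a difference of 0.14 (adjusted p = 0.643). The remaining probe kept a value on only 1 array of each group (1.07 and 1.38) after outlier spots were left out. The groups of Irgm1 overlapped with a median shift, without normalization, with the mean over its probes, and with outlier spots kept, when the remaining probe stood for the gene.

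Irgm2 and Igtp, regulators encoded next to each other on chromosome 11, had differences below 0. Irgm2 gave 3.21, 3.16 and 3.14 in PGC-1αf/f and 2.98, 3.07 and 2.74 in mPGC-1α microglia. Each mPGC-1α array was below each control, most of all replicate 3. The difference was -0.24 (SE 0.14, 95% interval -0.57 to 0.09) or 0.846-fold, and did not pass (limma adjusted p = 0.401). Without mPGC-1α replicate 3 the Irgm2 difference was -0.15 (adjusted p = 0.609). For Igtp the values were 1.74, 1.90 and 1.74 against 1.70, 1.73 and 1.66. The Igtp groups were also apart, by less than the spread among controls, and the difference was -0.09 (SE 0.12, adjusted p = 0.720). The windows of this pair, printed above, are 73.7% identical. Without normalization between arrays the groups of both genes overlapped, and those of Igtp also did with quantile normalization.

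Iigp1, the effector among the IRG members, was -0.80, -0.42 and -2.12 in PGC-1αf/f and -1.17, -0.69 and -0.68 in mPGC-1α microglia. PGC-1αf/f replicate 3 was the lowest by far, and the other controls lay within or above the mPGC-1α range. The difference of 0.27 (SE 0.42, 95% interval -0.74 to 1.27, limma adjusted p = 0.766) became -0.23 without that array (adjusted p = 0.721). Within slide columns 1 and 2 it was -0.36 and -0.27.

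**Figure D2:**
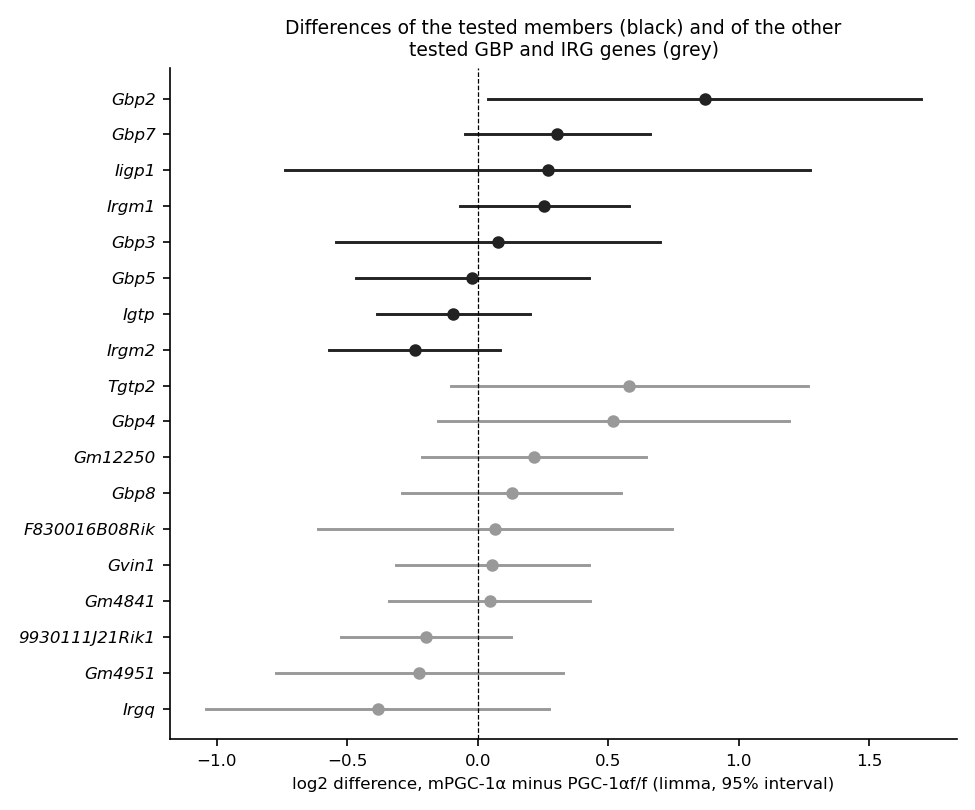
Log2 difference between mPGC-1α and PGC-1αf/f microglia (horizontal axis, points, with 95% intervals from limma as lines) for the 8 tested members (black) and the 10 other tested GBP and IRG genes (grey). The interval of Gbp2, from 0.04 to 1.70, lies above 0 before adjustment, and the intervals of the other 17 genes include 0.

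The members were next compared with each other across arrays. Over the 21 pairs of the 7 members with a value on all 6 arrays, Pearson's r ranged from -0.71 (Gbp2 and Irgm2) to 0.73, with a median of 0.10. Taken as deviations from the group means, r ranged from -0.69 to 0.82 with a median of 0.0096, and the 6 pairs among Gbp2, Gbp5, Igtp and Iigp1, singled out after their values were seen, ran from 0.59 to 0.82. These are descriptions over 6 arrays that share 1 slide, and genes of 1 array share its normalization. PGC-1αf/f replicate 2 held the highest value of 3 of the 7 members (Gbp5, Igtp and Iigp1), while the lowest lay in PGC-1αf/f replicate 3 for Gbp2 and Iigp1 and in mPGC-1α replicate 3 for Igtp and Irgm2. Averaged over the 7 members, the signal was 0.26, 0.65 and 0.14 in PGC-1αf/f and 0.44, 0.53 and 0.56 in mPGC-1α microglia, which overlapped. The genes whose pattern followed that mean most closely were Dmkn, Bub1, Pianp, Tbc1d10c and Washc1, with r from 0.97 to 1.00 over 6 arrays. At an r over 0.9 there were 161 of 12295 genes, and with so few arrays a high r picks out many genes.

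Next, the GBP and IRG genes outside the list were examined. Of 16 such genes 14 had a probe and 10 were tested. In limma 0 passed, against 0.0792% of all probes. Below an unadjusted p of 0.05 lay 7.53% of all probes with higher signal and 9.21% with lower, but 0 of these 10 genes. Their median difference was 0.06, and with single arrays left out it ran from 0.013 (without mPGC-1α replicate 3), 0.018 (without PGC-1αf/f replicate 2) and 0.025 (without PGC-1αf/f replicate 3) to 0.099 (without mPGC-1α replicate 2). Tgtp2, an effector, was 1.77, 1.88 and 0.80 in PGC-1αf/f and 2.19, 1.99 and 2.01 in mPGC-1α microglia (difference 0.58, SE 0.29, adjusted p = 0.352). It was the only one with groups apart among the 9 with a value on every array. Groups apart with mPGC-1α higher were met by 11.4% of all probes. PGC-1αf/f replicate 3 was again the lowest array, and without it the Tgtp2 difference was 0.24 (adjusted p = 0.577). Gbp4 gave -2.56, -1.73 and -2.75 against -2.09, -1.74 and -1.65, a difference of 0.52 (SE 0.28, adjusted p = 0.383) that was 0.83 and 0.32 on leaving out PGC-1αf/f replicates 2 and 3. The others lay between 0.22 (Gm12250, or Irgb10) and -0.38 (Irgq). Among them were Gbp8 at 0.13, F830016B08Rik at 0.07, the related very large GTPase Gvin1 at 0.06 and Gm4841 at 0.05. Below 0 also lay 9930111J21Rik1 at -0.20 and Gm4951 at -0.22. Leaving out single arrays moved Gm12250 from 0.06 to 0.32, Irgq from -0.57 to -0.07, Gm4951 from -0.47 to -0.04 and 9930111J21Rik1 from -0.28 to -0.14. Gbp8 (-0.02 to 0.27), F830016B08Rik (-0.21 to 0.35), Gvin1 (-0.05 to 0.15) and Gm4841 (-0.03 to 0.18) changed sign. Gbp and Irg genes form families of close copies, and the extent to which a probe also binds the transcript of a relative was not tested.

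Upstream, the interferon pathway genes were compared from a list of ligands, receptors, kinases and transcription factors. Of 17 genes 15 were tested, 0 passed in limma, 1 was higher at an unadjusted p under 0.05, against 7.53% of all probes, and the median difference was -0.08. That median was -0.21 with a median shift, -0.12 with normexp and quantile normalization, -0.031 with array weights and -0.039 with a random block for the slide column. It was -0.019, -0.036 and -0.031 without PGC-1αf/f replicates 1, 2 and 3, and -0.039 without mPGC-1α replicate 3. Ifng, the ligand, was well above background on 1 of 6 arrays and was not tested. The chains of its receptor, Ifngr1 and Ifngr2, differed by 0.06 (adjusted p = 0.866) and -0.08 (adjusted p = 0.802). Both changed sign on leaving out single arrays, Ifngr1 from -0.04 to 0.16 and Ifngr2 from -0.16 to 0.02. Irf1 was 1.43, 1.46 and 1.24 in PGC-1αf/f and 1.41, 1.27 and 1.22 in mPGC-1α microglia, groups that overlapped (difference -0.08, adjusted p = 0.786). The groups were apart for 3 genes with mPGC-1α higher and for 3 with it lower, patterns met by 11.4% and 13.7% of all probes. The higher ones were Socs3 and, from the transcription complex that type I interferons activate, Stat2 (0.33, adjusted p = 0.338) and Irf9 (0.19, adjusted p = 0.439). A second tested Irf9 probe had groups that overlapped and a difference of 0.11 (adjusted p = 0.747). The lower ones were Irf8 (-0.11, adjusted p = 0.660) and, named after their values were seen, the type I interferon receptor chain Ifnar2 (-0.10, adjusted p = 0.693) and the kinase Tyk2 (-0.38, adjusted p = 0.404). The Tyk2 difference was -0.15 without mPGC-1α replicate 3 and -0.51 without mPGC-1α replicate 2. Of the feedback inhibitors, Socs1 differed by 0.10 (adjusted p = 0.837), and Socs3, the gene at an unadjusted p under 0.05 and named after its value was seen, by 0.94 (adjusted p = 0.216).

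Other genes that interferon-γ induces were tested for 16 of 19 listed. In limma 0 passed, 2 were higher at an unadjusted p under 0.05, against 7.53% of all probes, and the median difference was 0.15. That median was 0.089 without PGC-1αf/f replicate 3, 0.087 without mPGC-1α replicate 3, 0.018 without both and 0.23 without mPGC-1α replicate 1. It was 0.018 with a median shift, 0.048 with quantile normalization, 0.029 with normexp and quantile normalization and 0.032 with array weights. The chemokine Cxcl10 was -1.78, 0.05 and -0.88 in PGC-1αf/f and 0.21, 0.53 and 0.71 in mPGC-1α microglia (difference 1.35, SE 0.43, adjusted p = 0.227). Its groups were apart, as for 1 of the 14 genes with a value on every array, against 11.4% of all probes. The Cxcl10 difference was 0.90 without PGC-1αf/f replicate 1 and 1.81 without PGC-1αf/f replicate 2. Cxcl9, a chemokine that depends more strictly on interferon-γ, was -2.34, -0.63 and -3.59 against -1.43, -1.71 and -0.97, with overlap (difference 0.82, SE 0.68, adjusted p = 0.555). That difference was 0.12 without PGC-1αf/f replicate 3 and 1.6 without PGC-1αf/f replicate 2. Nlrc5, a regulator of MHC class I genes and the other gene at an unadjusted p under 0.05, named after its value was seen, differed by 0.74 (adjusted p = 0.275), and by 0.46 without PGC-1αf/f replicate 3. Ciita, the master regulator of MHC class II genes, differed by 0.34 (adjusted p = 0.601), which became 0.15, 0.72 and 0.17 on leaving out PGC-1αf/f replicates 1, 2 and 3.

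Proteins that load or work with GBP and IRG proteins, among them the ATG8 conjugation proteins, inflammasome caspases and gasdermin D, were tested for 19 of 20 genes. Again 0 passed in limma and 1 was higher at an unadjusted p under 0.05, against 7.53% of all probes, with a median difference of 0.02. That gene, named after its value was seen, was Map1lc3b, an ATG8 protein (difference 0.43, adjusted p = 0.192). Casp4 gave 0.80, 1.63 and 1.38 in PGC-1αf/f and 1.28, 1.56 and 2.00 in mPGC-1α microglia (difference 0.35, SE 0.27, adjusted p = 0.529), and the difference was 0.11 and 0.53 on leaving out PGC-1αf/f replicates 1 and 2, and 0.15 without mPGC-1α replicate 3. Casp1, the inflammasome caspase, differed by -0.16 (adjusted p = 0.597), by -0.08 without PGC-1αf/f replicate 3 and by -0.25 without mPGC-1α replicate 3.

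Moreover, the type I interferon response genes were set beside the members. Of 28 such genes 25 were tested, 0 passed in limma, 19 were higher at an unadjusted p under 0.05 and 16 had all mPGC-1α arrays above all PGC-1αf/f arrays, against 7.53% and 11.4% of all probes, with a median difference of 1.06. Oas2 and Herc6, well above background on 2 PGC-1αf/f and 3 mPGC-1α arrays, were tested only through the mPGC-1α group. Over the 23 genes well above background on all arrays, 18 were higher at an unadjusted p under 0.05 and 15 had all mPGC-1α arrays above all controls, and the median difference was 1.06. Of the 25 tested genes 4 passed without normalization, 9 with array weights and 2 with a random block for the slide column, settings in which 456, 754 and 138 of 25257 probes passed in place of 20. Isg15, whose promoter is printed above, differed by 1.51 (adjusted p = 0.135). The difference between this list and the members was not tested, since genes of a list are not replicates. An ISRE match was held by 10 of 19 type I genes with a promoter window and by 5 of 7 of the other GBP and IRG genes.

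**Figure D3:**
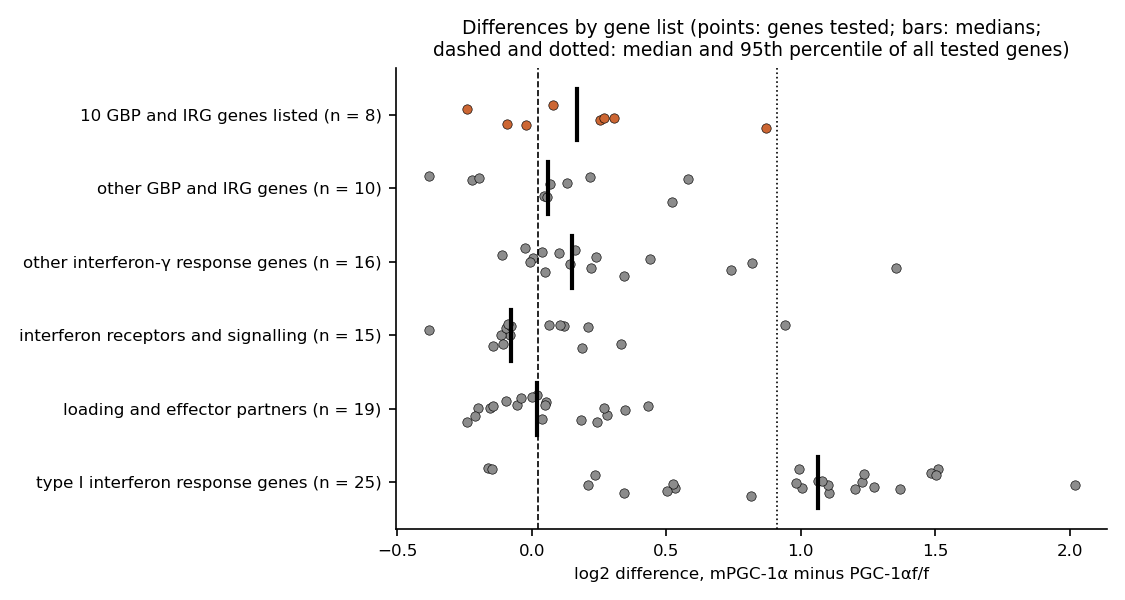
Log2 difference between mPGC-1α and PGC-1αf/f microglia (horizontal axis) of each tested gene, by list, with the list median as a bar, the median of all tested genes (0.02) as a dashed line and their 95th percentile (0.91) as a dotted line. Members lie from -0.24 to 0.87 around a median of 0.17, and the type I interferon response genes around a median of 1.06.

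Transcripts of other cells varied between the arrays along with some of these values. In bulk samples, fewer cells of a type and less RNA per cell cannot be told apart. Of 14 T and NK cell markers, 10 were well above background on all arrays, while Klrb1c, Ncr1 and Trac were not tested. Their signal, summed over tested markers with a value on every array and relative to the 75th percentile, was 1.94 to 7.34 in PGC-1αf/f and 5.48 to 10.2 in mPGC-1α microglia. For the 10 neutrophil markers, of which 9 were well above background on all arrays, the sums were 15.3 to 133 and 134 to 159. For the 8 monocyte markers, 7 of them well above background on all arrays, they were 49.2 to 89.0 and 88.0 to 96.1. Endothelial and mural cell markers summed to 4.98 on PGC-1αf/f replicate 3 and 18.4 to 27.2 on the other arrays, and erythroid markers to 11.6 and 19.5 to 35.8. PGC-1αf/f replicate 3, where Gbp2 and Iigp1 were lowest and Gbp3 highest, had the lowest sum in each of these lists and for astrocyte markers. Other lists had their lowest sum elsewhere. For border macrophage markers it was 17.9 on mPGC-1α replicate 1, against 18.4 on PGC-1αf/f replicate 3. For neuron markers it was 12.4 on PGC-1αf/f replicate 2, against 14.5. On mPGC-1α replicate 2 it was 40.8 for oligodendrocyte and 122 for microglial markers, against 41.3 and 132. Oligodendrocyte markers, 8 of 11 of which were well above background on all arrays, differed by a median of -0.58, with 0 past the threshold. Among the 10 tested, 6 were apart and lower in mPGC-1α microglia and 5 lower at an unadjusted p under 0.05, against 13.7% and 9.21% of all probes, but Mog and Opalin were among the 10 only through the PGC-1αf/f group, where they were brighter. Of the 14 microglial markers 13 had a difference below 0, with a median of -0.18 and 0 past the threshold. The part of these cells in the Gbp2 and Iigp1 values was not tested. Without PGC-1αf/f replicate 3 the median difference was 0.34 for the T and NK cell markers, 0.35 for the neutrophil markers and 0.36 for the monocyte markers. With it the medians were 0.85, 1.75 and 1.25. Each of these lists held 1 gene tested only through the mPGC-1α group, where it was brighter (Gzmb, Cxcr2 and F10, well above background on 1, 2 and 2 PGC-1αf/f arrays). Over the markers well above background on all arrays the medians were 0.81, 1.55 and 1.08 with PGC-1αf/f replicate 3 and 0.33, 0.34 and 0.35 without it. It went from 0.78 to 0.11 for the endothelial and mural cell markers, from 0.12 to -0.42 for the erythroid markers and from 0.17 to 0.07 for the members. For the border macrophage markers it was 0.31 with and 0.32 without that array, and for the type I interferon response genes 1.06 and 0.83. A list of dissociation and immediate-early response genes had a median difference of 0.91, and 0.90 without that array. Of its 15 genes 2 passed the threshold with higher signal (Fosb and Dusp1), against 0.0713% of all probes. The part of this list was not tested either. Hspa1a and Hspa1b, well above background on 2 and 1 PGC-1αf/f arrays, were tested only through the mPGC-1α group, and over the remaining 13 genes the median was 0.85, and 0.66 without that array. With the replicate block, and without mPGC-1α replicate 3, 0 probes of the whole array passed, so Fosb and Dusp1 did not. Without mPGC-1α replicate 2 only 1 probe passed, so at least 1 of them was lost there too.

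**Figure D4:**
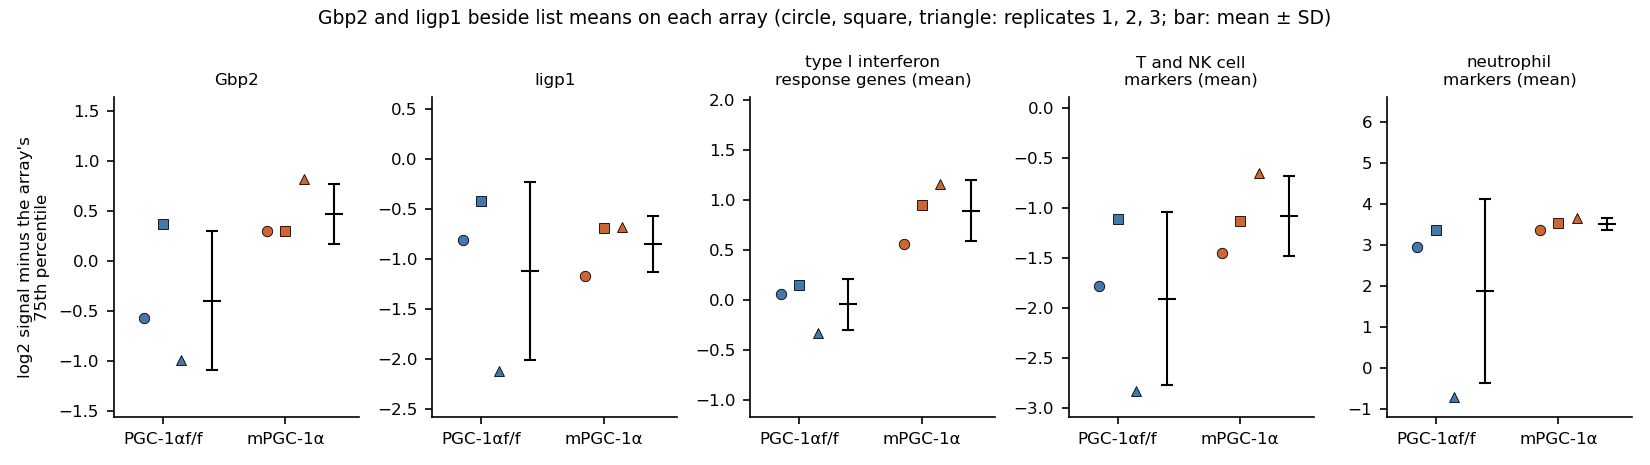
Log2 signal minus the 75th percentile of the array (vertical axis) for Gbp2 and Iigp1, beside the mean over the type I interferon response genes, the T and NK cell markers and the neutrophil markers, 1 point per array with bars for mean ± SD. PGC-1αf/f replicate 3 (blue triangle) is the lowest array in all 5 panels, at -2.83 for the T and NK cell mean and -0.69 for the neutrophil mean. Gbp3, not shown, is highest on that array.

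Finally, the members were followed through 19 alternatives of processing and array choice. In limma 0 of the 8 tested members passed under any of the 19. Gbp2, Gbp7 and Irgm1 had a difference above 0 in all 19, and Irgm2 and Igtp one below 0 in all 19. Gbp2 ranged from 0.30 to 1.25 (adjusted p from 0.173 to 0.726), and Irgm2 from -0.45 to -0.15 (adjusted p from 0.294 to 1.00). Igtp ranged from -0.31 (normexp and quantile normalization) to -0.04 (without PGC-1αf/f replicate 2). Irgm1 ranged from 0.12 (median shift) to 0.33 (without mPGC-1α replicate 2). For Gbp7 the range was 0.18 (median shift, and without normalization) to 0.43 (normexp and quantile normalization). Gbp3, Gbp5 and Iigp1 changed sign under 3, 2 and 3 of them.

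**Figure D5:**
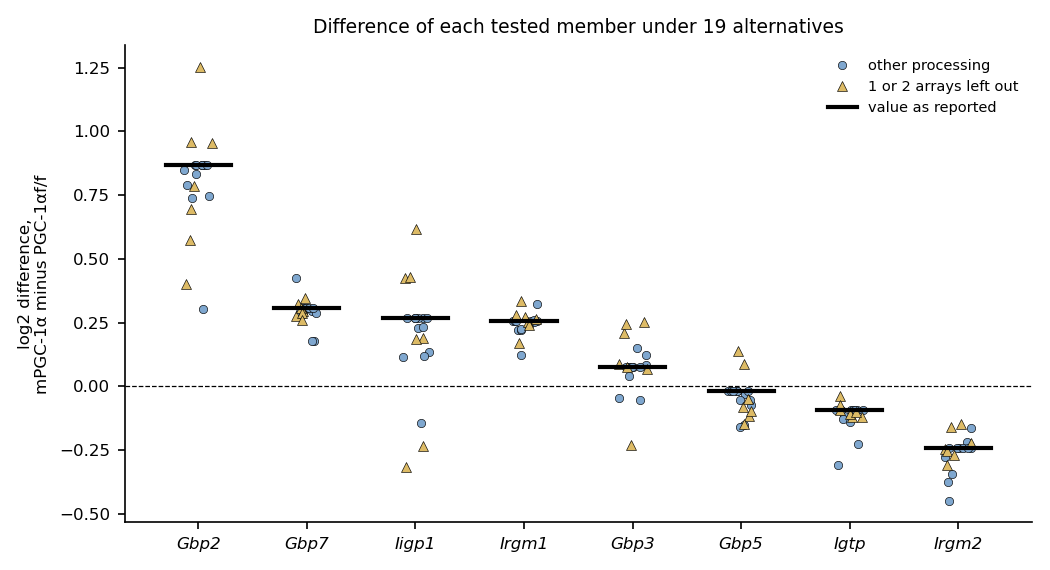
Log2 difference between mPGC-1α and PGC-1αf/f microglia (vertical axis) of each tested member as reported (bar), under other processing (circles) and with 1 or 2 arrays left out (triangles). Gbp2 spreads from 0.30 to 1.25 and stays above 0, and Iigp1 spreads from -0.32 to 0.62 across 0.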

How the data were processed

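The authors made Cy5-labelled cDNA from amplified RNA for 1-colour Agilent mouse arrays, 1 array per sample. Deposited scanner files hold spot intensity after background subtraction and spatial detrending by Feature Extraction 11.5.1.1, per the file headers. All arrays lay on 1 slide, and slide row and group cannot be told apart.

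Control spots (ControlType other than 0) and outlier-flagged spots were left out. From each log2 intensity the 75th percentile of its array was subtracted, and spots of a probe were averaged. Of 56605 probes 25333 were tested, and 25257 gave a p. Transcript accessions were named through RefSeq (GRCm38.p6). Group differences were estimated in limma 3.58.1 (lmFit, eBayes, two-sided; R 4.3.3) with Benjamini-Hochberg adjustment over all probes and a threshold of 0.05. A gene was represented by its probe of highest mean signal with values on all 6 arrays, where it had one. Promoters were aligned with Biopython 1.88 and figures drawn with matplotlib 3.10.9. Labels do not say that replicates were separate mice, so p-values measure the spread between these samples. Members and lists were chosen with earlier results of these data known. The text names all members, the other tested GBP and IRG genes, chosen interferon pathway genes, genes past the threshold and the 5 most alike in pattern, and Isg15 after its values were seen. A gene that this choice includes is not reported here. Alternatives were other normalizations (or none, from the deposited table of the same intensity values), background correction and filters, a replicate block, array weights, variance moderation, slide column as a random block, probes averaged per gene and arrays left out. Keeping outlier spots and leaving out both doubted arrays (PGC-1αf/f and mPGC-1α replicate 3) were added after seeing the data.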

Additional observations from a re-analysis of the deposited data

How the results depend on the processing

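No member passed the limma threshold under any of the 19 alternatives. The count of members higher at an unadjusted p under 0.05, 1 as reported, was 0 with a median shift (5.14% of all probes), without normalization (4.94%), with the replicate block (9.49%), with array weights (10.8%), with a random block for the slide column (9.14%) and without both doubted arrays (6.01%), and 2 with normexp and quantile normalization (7.25%), against 7.53% of all probes as reported. With single arrays left out it ran from 0 to 1, and the share of all probes from 4.68% to 10.6%. The count with groups apart and mPGC-1α higher was 1 as reported, where 11.4% of all probes met that pattern. It was 0 with a median shift, without normalization and after averaging each gene's probes, and ran from 1 to 2 with single arrays left out. Without PGC-1αf/f replicate 3 it was 1, and the share of all probes rose to 14.8%. The share under the other settings is not given, so their counts cannot be set against it. The median member difference turned to -0.093 with array weights, where Gbp3 was -0.048, Iigp1 -0.14 and the loading and effector partners -0.0073.

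The median shift placed the median of all tested probes at -0.14, and under it Gbp3 was -0.056, the median of the other GBP and IRG genes -0.081 and that of the partners -0.11. Those 2 medians were -0.0056 and -0.048 with quantile normalization and -0.041 and -0.057 without both doubted arrays, where Iigp1 was -0.32. The partners' median was -0.017 without normalization and -0.032 with normexp and quantile normalization, and that of the receptors and signalling genes was 0.063 without a filter on dim probes. With single arrays left out, Gbp3 ran from -0.23 (without PGC-1αf/f replicate 1) to 0.25, Gbp5 from -0.12 to 0.14 (without PGC-1αf/f replicate 2), Iigp1 from -0.23 (without PGC-1αf/f replicate 3) to 0.62 and the partners' median from -0.035 (without mPGC-1α replicate 3) to 0.070. Gbp5 was 0.09 without mPGC-1α replicate 1. Of the type I interferon response genes, 0 as reported, 4 passed without normalization, 9 with array weights and 2 with a random block for the slide column, against 456, 754 and 138 of all probes in place of 20. In these reversals and lost or gained calls the cause was not tested.

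Same-numbered samples deviated together only weakly (r of deviations 0.139, 0.127 and 0.0187 over 22997 probes), so they were treated as unpaired. Replicates 1 and 2 of the groups shared slide columns, and replicates 3 lay in columns 4 and 3. Slide column as a random block gave a larger consensus correlation, 0.349, and with it 138 probes and 0 members passed. With the replicate block 0 probes passed in place of 20, and 0 members in place of 0. Gbp6 differed by 0.80 and Gbp9 by 0.25 without the filter on dim probes, and Gbp6 by 1.09 without mPGC-1α replicate 1 (adjusted p = 0.668, 1.00 and 0.359). Signal over background limits what can be said of Gbp6 and Gbp9, and 3 arrays a group leave wide intervals (Iigp1, -0.74 to 1.27).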
